A study of Mus musculus with 21 samples.

Results

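Threonine is carried to the ribosome by a family of tRNAs that differ in their anticodon, and the members described here are the isoacceptors ThrAGT, ThrCGT and ThrTGT. They were taken by name, with earlier results of these data known. Every predicted tRNA gene whose name ends in one of these 3 anticodons was included, which gave 88 of 3283 predicted loci in the Pol III table. Of these 88 loci, 55 are ThrAGT, 7 are ThrCGT and 26 are ThrTGT, and 31 loci named ThrGGT were not members. In the table of tRNA reads, 17 of 1143 genes are members (10 ThrAGT, 3 ThrCGT and 4 ThrTGT), and 13 of them could be placed on the genome, each with the anticodon of its name.

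The study compared total back skin of wild-type (WT) male mice with that of NSun2-/- males, in which the gene for an RNA methyltransferase is disrupted. All animals had a C57Bl6/J CBA F1 background and were taken at postnatal day 25, when hair follicles enter their growth phase. The NSun2-/- mice came from a single gene trap clone (D014D11), and the WT mice came from the same breedings. There were 4 libraries per genotype of RNA treated with bisulphite and 4 per genotype of sequenced tRNA, whereas RNA polymerase III (Pol III) immunoprecipitation had 2 WT libraries and 1 NSun2-/- library, each from 3 pooled mice, with 1 input per genotype.

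A tRNA reads codons through its anticodon, and the adenosine that opens the anticodon of ThrAGT is normally turned into inosine, which sequencing reads as guanosine. NSUN2 methylates cytosines at the junction of the variable loop and the T arm of many tRNAs, and bisulphite leaves methylated cytosines unconverted. The cytosine before the discriminator base of threonine tRNAs is a known substrate of another enzyme, NSUN6. Cleavage of tRNAs near the anticodon by ribonucleases such as angiogenin yields 5′ and 3′ fragments, and cytosine methylation is known to protect some tRNAs from it. Positions below follow the standard tRNA numbering, in which 34 to 36 are the anticodon, 48 to 50 the junction and 58 a methylated adenosine of the T arm.

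The labels were checked against the bisulphite libraries. Cytosines listed in Nsun2 numbered 31, 23, 48 and 43 in the WT libraries and 0 in each of the 4 NSun2-/- libraries. Keratinocyte and dermal markers were present throughout, with 293 to 433 listed cytosines in Krt5 and 1374 to 1721 in Col1a1. Muscle was present too, with 269 to 406 in Acta1, while the leukocyte marker Ptprc had 3 in NSun2-/- replicate 4 and 0 in the other libraries. The adipocyte marker Plin1 had 0, 39, 11 and 29 in WT and 207, 28, 281 and 71 in NSun2-/- libraries. Its highest values were in NSun2-/- replicates 1 and 3, which also listed the most cytosines in all (665049 and 658169). Adipoq had 76 to 96 in WT and 77 to 152 in NSun2-/- libraries. The blood marker Hbb-b1 had 18 to 25 in some libraries and 0 in others of both genotypes. The part of these cells in the results was not tested. In such bulk samples, fewer cells of a type and less RNA per cell cannot be told apart.

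Few of the predicted genes, members or not, were occupied by Pol III. A gene counted as bound when each WT library held 10 reads or more there and the WT level, in RPM (reads scaled to the total of the library), reached 2-fold that of the WT input. By this rule 10 of the 88 loci were bound (6 ThrAGT, 1 ThrCGT and 3 ThrTGT), beside 226 of all 3283 predicted loci. Of the 78 others, 67 had under 10 reads in both WT libraries. Library totals were 36866 and 63136 counts for WT, 95112 for NSun2-/-, and 15918 and 14483 for the WT and NSun2-/- inputs.

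The highest occupancy among the located members was at ThrTGT genes. On mm9, chr14.trna704-ThrTGT (chr14:51684843-51684915, minus strand) had 6347 and 4736 RPM in the WT libraries and 6151 in the NSun2-/- library. The gene of identical sequence, chr11.trna206-ThrTGT (chr11:48667121-48667193, plus strand), had 4991 and 4783 RPM in WT and 5951 in NSun2-/-. The third, chr14.trna190-ThrTGT (chr14:51708325-51708397, plus strand), had 2279 and 1869 RPM in WT and 1956 in NSun2-/-. The NSun2-/- value lay between the WT values at the first and the last of these genes and above both at the second.

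The 6 bound ThrAGT genes lie on 3 chromosomes. On chromosome 11, chr11.trna395-ThrAGT (chr11:68851355-68851428, plus strand) had 4150 and 2566 RPM in WT and 2797 in NSun2-/-, chr11.trna1822-ThrAGT (chr11:68876246-68876319, minus strand) had 1302 and 1996 against 1493, and chr11.trna399-ThrAGT (chr11:68923967-68924040, plus strand) had 814 and 919 against 967. On chromosome 13, chr13.trna104-ThrAGT (chr13:23542491-23542564, plus strand) had 3011 and 2423 RPM in WT and 2187 in NSun2-/-, and chr13.trna81-ThrAGT (chr13:21947890-21947963, plus strand) had 1519 and 713 against 725. The remaining gene, chr7.trna1213-ThrAGT (chr7:36019789-36019862, minus strand), had 1655 and 3611 RPM in WT and 3974 in NSun2-/-. The WT libraries differed from each other by up to 1.11 on the log2 scale among these genes, so single genes were measured loosely. All 10 bound genes are intergenic, the nearest annotated genes lying 126 bp (Gm16170, beside chr11.trna206-ThrTGT) to 18491 bp away (Hist1h2br, beside chr13.trna81-ThrAGT), with Per1 505 bp from chr11.trna399-ThrAGT.

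The ThrCGT genes with the most reads share a short form of 72 nt. The bound gene chr16.trna50-ThrCGT (chr16:13437416-13437487, plus strand) had 3255 and 4482 RPM in WT and 4910 in NSun2-/-. The other, chr11.trna550-ThrCGT (chr11:79518152-79518223, plus strand), overlaps an exon of Gm11205 and had 407 and 2043 RPM in WT and 2660 in NSun2-/-, against 942 in the WT input. It missed the rule for bound genes, its WT level being under 2-fold the input, and it differed by 2.25 on the log2 scale between the WT libraries. It is described here because reads and cytosines were listed at it.

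With 1 NSun2-/- library, occupancy can be compared only as values. None of the 10 bound genes was past 2-fold between NSun2-/- and WT, where 1.33% of all bound genes were (3 of 226). In 8 of the 10 the difference was smaller than that between the WT libraries, as it was in 143 of the 226. The rule for bound genes uses WT libraries only, so a gene occupied mainly in NSun2-/- skin is not counted, and chr11.trna550-ThrCGT, left out by it, had a log2 ratio of 1.10 and 4.83-fold the NSun2-/- input, beside the difference of 2.25 between its WT libraries. Summed over the bound genes of an isoacceptor, ThrAGT had 12450 and 12228 RPM in WT and 12144 in NSun2-/-, a log2 ratio of −0.02. ThrTGT had 13617 and 11388 against 14057 (log2 ratio 0.17), and ThrCGT had 3255 and 4482 against 4910 (0.34). When libraries were scaled to the total over bound genes instead, ThrTGT stood at −0.06 and ThrAGT at −0.24, so the sign for ThrTGT depends on the scaling. ThrCGT stood at 0.13 there, and in RPM at 0.58 against WT replicate 1 alone and 0.13 against WT replicate 2 alone.

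**Figure D1:**
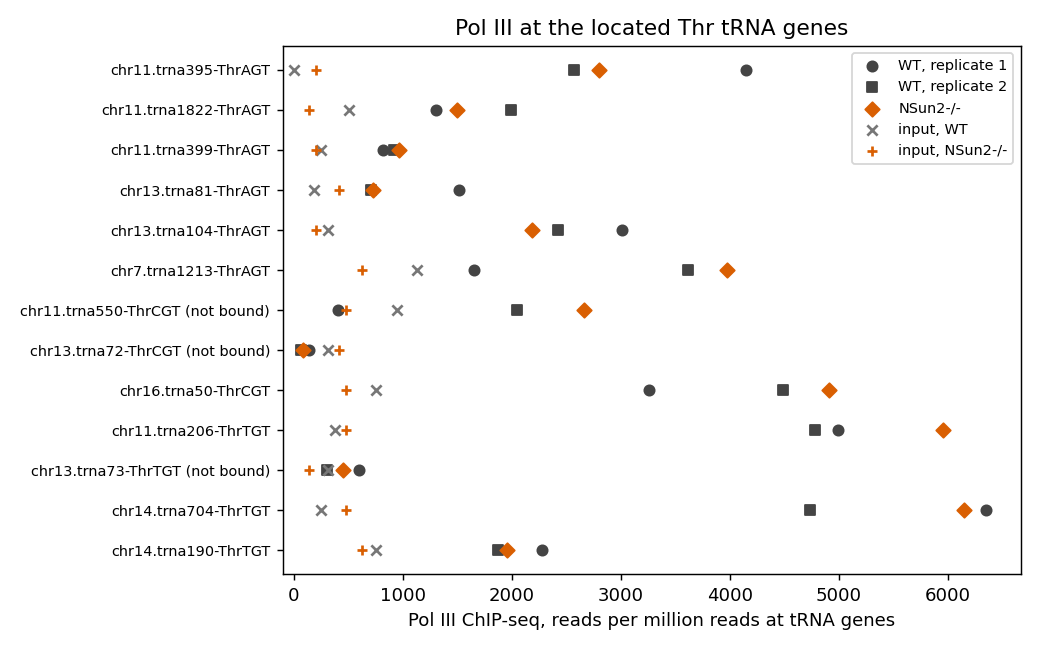
Pol III occupancy in RPM at each located Thr gene, with points for the 2 WT libraries, the 1 NSun2-/- library and the inputs. In 8 of the 10 bound genes NSun2-/- differs from WT by less than the WT libraries differ from each other, and chr14.trna704-ThrTGT is highest in WT replicate 1, with 6347 RPM.

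The gene sequences show which reads can be told apart. The genes below stand for the 3 isoacceptors (mm9, read in the direction of the gene), with the anticodon and C48 in capitals.
chr11.trna1822-ThrAGT: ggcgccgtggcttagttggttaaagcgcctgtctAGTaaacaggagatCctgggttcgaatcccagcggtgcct
chr11.trna550-ThrCGT: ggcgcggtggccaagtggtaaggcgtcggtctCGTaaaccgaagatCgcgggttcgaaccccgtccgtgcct
chr14.trna704-ThrTGT: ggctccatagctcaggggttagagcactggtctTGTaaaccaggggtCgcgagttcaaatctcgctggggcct
A cytosine at position 48 is present in all 13 located genes. The second cytosine of the junction differs: it is at 49 in the ThrAGT genes and at 50 in the shorter ThrCGT genes and in the 3 bound ThrTGT genes. Among the ThrAGT genes, chr11.trna395-ThrAGT, chr11.trna1822-ThrAGT and chr7.trna1213-ThrAGT are identical, and the others differ from them at 1 to 4 nucleotides. The unbound genes chr13.trna72-ThrCGT and chr13.trna73-ThrTGT have the 74 nt of a ThrAGT gene and differ from chr11.trna1822-ThrAGT at only 5 nucleotides each, anticodon included.

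The internal promoter of a tRNA gene has an A box and a B box, and simple forms of both were searched on both strands. The letters TNGCNNAG were found in 6 of 6 ThrAGT, 3 of 3 ThrCGT and 4 of 4 ThrTGT genes, against 53.8% of all 251 placed tRNA genes. The letters GGTTCGA followed by NNCC were found in 5 of 6 ThrAGT genes, 3 of 3 ThrCGT genes and 1 of 4 ThrTGT genes, against 65.7% of the 251. The 3 bound ThrTGT genes lack this form, and their lowest WT level was 1869 RPM. A run of TTTT, which ends Pol III transcription, began 1 to 35 bp after the gene in 12 of 13 genes and was not found within 40 bp in chr11.trna399-ThrAGT.

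Sequenced tRNA libraries held 17944789, 17352126, 24270307 and 22429614 counts in WT replicates 1 to 4 and 19867441, 36749727, 23665102 and 17556844 in NSun2-/- replicates 1 to 4. Levels are given in CPM, the counts scaled to these totals, always for replicates 1 to 4 in order. The deposited counts are not single reads throughout: 75 of 159 ThrAGT, 7 of 14 ThrCGT and 10 of 21 ThrTGT sequences have counts that share a common factor over the libraries, and divided by it the members hold 13029, 3128 and 1840 counts in all. These are levels of sequenced pieces, and genes were not compared per length because nearly all reads covered only part of a tRNA. Over all 8 libraries, ThrAGT had a mean of 253 CPM and ranked 37 of 60 isoacceptors, ThrTGT had 36.4 CPM at rank 44 and ThrCGT had 20.6 CPM at rank 46. The levels of ThrAGT lay far above the other members in every library, while ThrCGT exceeded ThrTGT only in WT replicate 1.

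ThrAGT reads had 279, 236, 202 and 263 CPM in WT and 297, 326, 249 and 175 CPM in NSun2-/- libraries. The groups overlap, with NSun2-/- replicate 4 the lowest library and replicate 2 the highest. The means were 245 ± 34 CPM (SD, n = 4) and 262 ± 65.8 CPM (SD, n = 4). In the edgeR fit the log2 ratio of NSun2-/- to WT was 0.51 (SE 0.24, adjusted p = 0.153), and it moved widely with the choices made. It was 0.73 without NSun2-/- replicate 4 (adjusted p = 0.0425 by edgeR), 0.16 without NSun2-/- replicate 2 (adjusted p = 0.622) and 0.09 under scaling to library totals (adjusted p = 0.840).

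ThrCGT reads had 39.1, 29.2, 16.5 and 14.5 CPM in WT and 32.1, 5.96, 8.11 and 19.3 CPM in NSun2-/- libraries. Replicate 1 was the highest of both groups, and the groups overlap widely. The means were 24.8 ± 11.5 CPM in WT and 16.3 ± 12 CPM in NSun2-/- (SD, n = 4 each). The edgeR log2 ratio was −0.22 (SE 0.47, adjusted p = 0.765), and it was 0.15 without WT replicate 1.

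ThrTGT reads had 17.0, 32.7, 30.0 and 29.7 CPM in WT and 53.2, 32.5, 53.5 and 42.4 CPM in NSun2-/- libraries. NSun2-/- replicate 2 lay just under WT replicate 2, and the other 3 NSun2-/- libraries were above all WT libraries. The means were 27.3 ± 7.02 CPM and 45.4 ± 10 CPM (SD, n = 4 each), and the edgeR log2 ratio was 1.13 (SE 0.29, adjusted p = 0.0135). This made 1 of the 3 members called, in the direction of higher levels in NSun2-/- skin. Of all 50 isoacceptors tested 20% were called, 10% higher and 10% lower in NSun2-/- skin. The call was not kept under scaling to library totals, which lowers the median log2 ratio of all isoacceptors by 0.39 (from 0.01 to −0.38): there ThrTGT stood at 0.73 (adjusted p = 0.0781 by edgeR). It was also lost without WT replicate 2, with a log2 ratio of 1.10 (adjusted p = 0.0581 by edgeR). With replicate as a block the log2 ratio was 1.15 (adjusted p = 0.0490 by edgeR). With a filter set by the blocked design, chosen after seeing the data, the call was lost (1.15, adjusted p = 0.0597 by edgeR). The call thus depends on these choices, while the log2 ratio stayed at 0.73 to 1.25 under every alternative run.

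**Figure D2:**
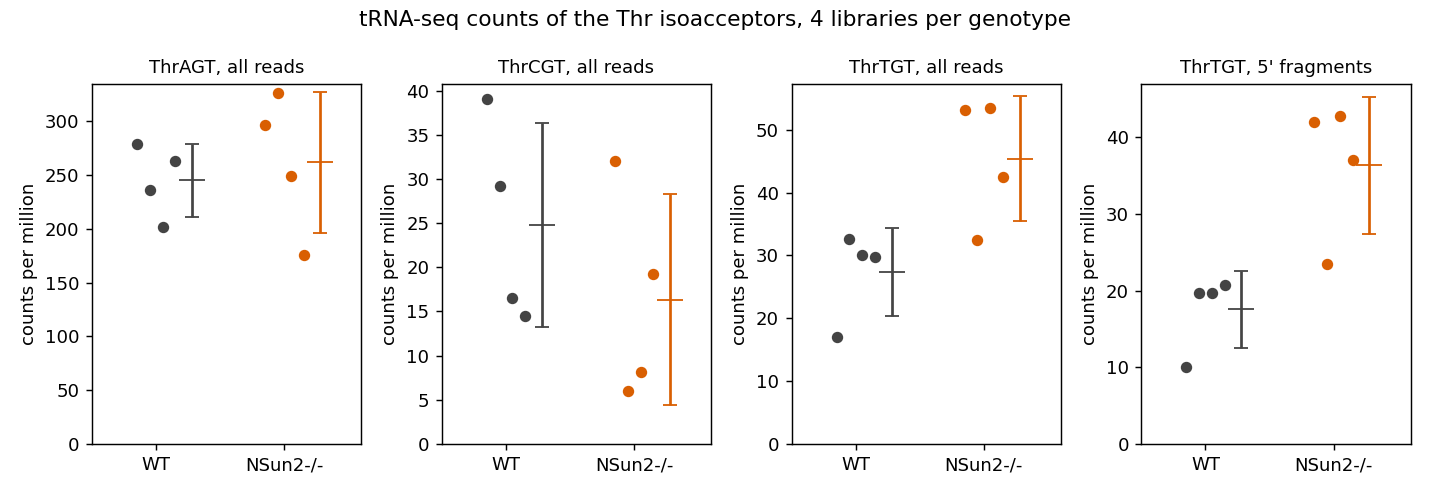
Level in CPM in each tRNA library of WT and NSun2-/- skin, with the mean and SD of 4 libraries, for all reads of ThrAGT, ThrCGT and ThrTGT and for the 5′ fragments of ThrTGT. The 5′ fragments of ThrTGT lie at 10.03 to 20.7 CPM in WT and at 23.5 to 42.8 CPM in NSun2-/- libraries.

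The 5′ fragments, reads of 25 to 40 nt that begin at the first nucleotide of the gene, came from a single member. ThrTGT had 180, 342, 479 and 465 such counts in WT and 834, 864, 1013 and 651 in NSun2-/- libraries, which is 10.03, 19.7, 19.7 and 20.7 CPM against 42.0, 23.5, 42.8 and 37.1 CPM. All 4 NSun2-/- libraries were above all 4 WT libraries, and WT replicate 1 was the lowest. All 6 sequences behind these counts have a common factor, and divided by it the counts were 47, 89, 122 and 118 in WT and 214, 226, 261 and 166 in NSun2-/- libraries. The means were 17.6 ± 5.04 CPM and 36.3 ± 8.92 CPM (SD, n = 4 each). The edgeR log2 ratio was 1.25 (SE 0.28, adjusted p = 0.00483), and 1.05 when scaled to library totals, which lowers the median of all isoacceptors by 0.19. Thus the 1 member tested was called, among 42 isoacceptors tested of which 21.4% were called, all of them higher in NSun2-/- (21.4% higher, 0% lower).

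The other members gave no 5′ fragment at all. ThrAGT had 0 of 46769 counts, which allows a share of up to 0.00641%, and ThrCGT had 0 of 3320, which allows up to 0.0904%. After division by the common factor the limits are wider, 0.0230% and 0.0959%. Such limits, from 3 counts, cover counting error only, since reads copied by PCR are not separate molecules. ThrAGT was thus the most abundant member and had no detected 5′ fragment, whereas most ThrTGT reads were 5′ fragments.

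As a share of all ThrTGT reads, which does not depend on library scaling, 5′ fragments made up 59.0, 60.3, 65.8 and 69.8% in WT and 78.9, 72.3, 80.0 and 87.4% in NSun2-/- libraries. Every NSun2-/- library was above every WT library, also when reads shared with ThrCGT were left out (69.2 ± 4.74% against 82.7 ± 6.29%, SD, n = 4 each). The means were 63.7 ± 5.01% and 79.7 ± 6.18% (SD, n = 4 each). The difference of 15.9 points had p = 0.0286 in an exact two-sided permutation test over 70 assignments, the smallest p that 4 against 4 libraries allow. The plan adjusted over the family of per-library values without naming its members, and the p of 0.0286 takes this share as its only member. Counted as 1 of 5 per-library values tested, a reading added after seeing the data, its adjusted p in the exact test was 0.143. By that reading the share alone does not pass the threshold. The exact permutation p was 0.0571 without WT replicate 1 (14.3 points), WT replicate 2 (14.8), WT replicate 3 (16.6) or NSun2-/- replicate 4 (13.3). ThrTGT ranked 9 of 57 isoacceptors by this share, and the median isoacceptor had 7.61% in WT and 12.1% in NSun2-/-. Other ThrTGT reads that reach the 3′ end had means of 8.81 ± 2.63 CPM in WT and 7.99 ± 2.43 CPM in NSun2-/- (SD, n = 4 each), without a test.

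A pair of sequences that stop just before the anticodon or 1 nucleotide earlier held 86.1 to 95.5% of the 5′ counts of ThrTGT per library. They are printed because they are the fragment itself, and both are identical to chr11.trna206-ThrTGT and chr14.trna704-ThrTGT over their whole length.
ThrTGT 33 nt: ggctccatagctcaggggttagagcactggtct
ThrTGT 32 nt: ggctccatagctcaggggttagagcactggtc
The 33 nt sequence had 100, 248, 376 and 340 counts in WT and 576, 528, 660 and 480 in NSun2-/- libraries. The 32 nt sequence had 56, 52, 76 and 104 counts in WT and 192, 216, 260 and 132 in NSun2-/-. In CPM, the 32 nt sequence was above all WT libraries in every NSun2-/- library, whereas for the 33 nt sequence NSun2-/- replicate 2, the deepest library, had 14.4 CPM and WT replicate 3 had 15.5 CPM, so its groups overlap. In the edgeR fit over single sequences, where a far larger number of features is tested, their log2 ratios were 1.27 (adjusted p = 0.191) and 1.64 (adjusted p = 0.0685), neither past the threshold. In all, 6 ThrTGT sequences of 27 to 33 nt were 5′ fragments, and all those of 32 or 33 nt, which include the matching pair from chr14.trna190-ThrTGT, held 94.4 to 100% of the counts per library.

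No read of a member met the definition of a mature tRNA, a read with a CCA end over at least 90% of the gene. For ThrTGT, 0 of 6529 counts allows a share of up to 0.0459%, or 0.163% after division by the common factor. So 0 members were tested, and of the 17 isoacceptors tested with edgeR 0% were called (0% higher, 0% lower), with 4 at an unadjusted p under 0.05.

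The 3′ fragments with a CCA end, again of 25 to 40 nt, came mainly from ThrAGT, whose 23 such sequences all have a common factor and hold 223 counts in all after division by it. It had 48.5, 49.3, 20.2 and 17.2 CPM in WT and 22.9, 7.89, 9.51 and 5.41 CPM in NSun2-/- libraries. WT replicates 1 and 2 were the highest, and NSun2-/- replicate 1 lay within the WT range. The means were 33.8 ± 17.5 CPM and 11.4 ± 7.83 CPM (SD, n = 4 each), and the edgeR log2 ratio, which is relative to the other isoacceptors of this class, was 0.06 (adjusted p = 0.918). Scaling to library totals instead lowers the median of all isoacceptors by 1.62, to −1.56, and there ThrAGT stood at −1.56 (adjusted p = 0.0374 by edgeR), which equals that median at 2 decimals.

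ThrCGT had 35, 30, 15 and 15 counts of 3′ CCA fragments in WT and 15, 15, 5 and 5 in NSun2-/- libraries, which divided by their common factor are 7, 6, 3 and 3 against 3, 3, 1 and 1. Its log2 ratio was 0.15 (adjusted p = 0.918 by edgeR), and −1.56 under library totals. The only such sequence listed at ThrTGT, with 15 counts in WT replicate 1, 5 in NSun2-/- replicate 1 and 0 in the others, is also listed at chr13.trna72-ThrCGT and is part of the ThrCGT counts, and ThrTGT was too low to be tested. Hence 0 of 2 tested members were called in this class with edgeR (unadjusted p of 0.877 for ThrAGT and 0.841 for ThrCGT), where 18.9% of 37 isoacceptors were called (10.8% higher and 8.11% lower in NSun2-/-).

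**Figure D3:**
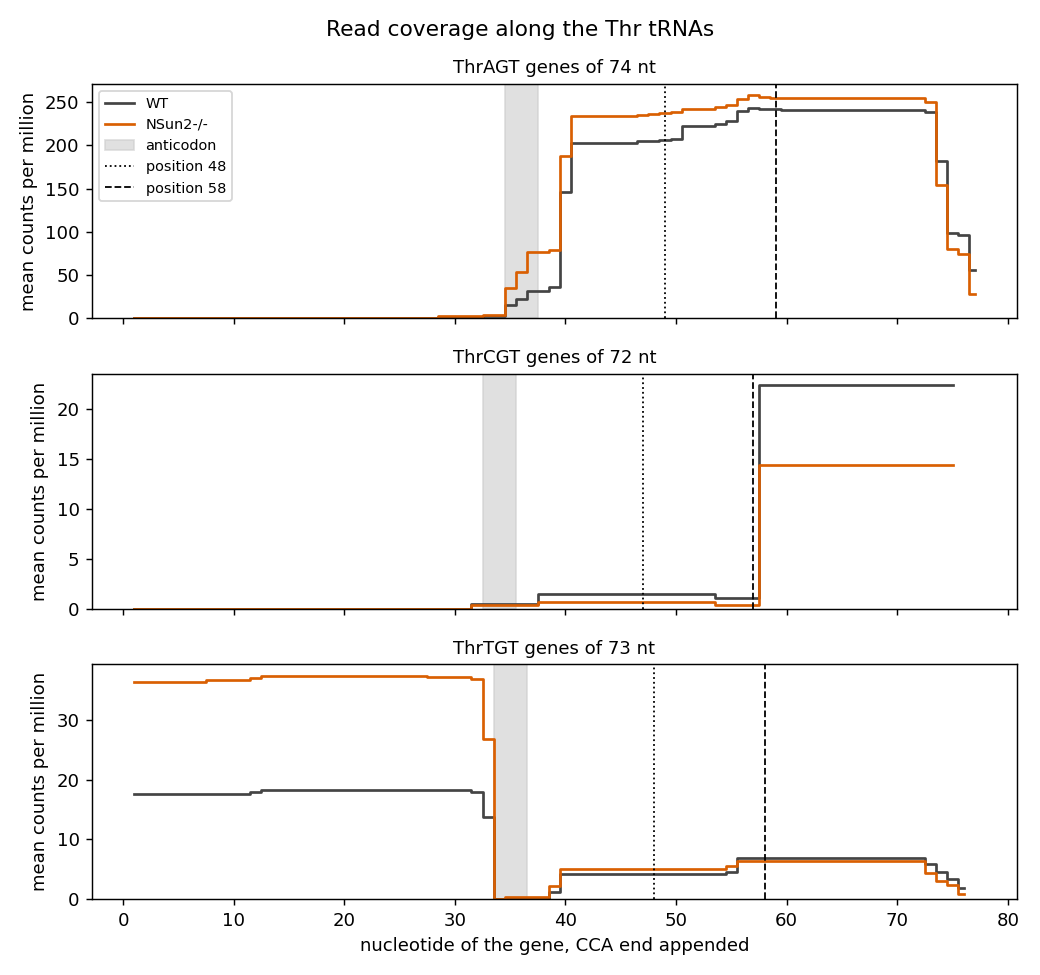
Mean CPM of each genotype along genes of the 74 nt ThrAGT, 72 nt ThrCGT and 73 nt ThrTGT forms, with the anticodon in grey and lines at positions 48 and 58. Most ThrAGT reads begin 3′ of the anticodon, and part of them inside it, ThrCGT reads lie mostly near the 3′ end, and ThrTGT reads lie mostly 5′ of the anticodon.

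The 3′ reads of ThrAGT show where its sequenced pieces begin. Reads that start within the anticodon, at positions 34 to 36, made up 17.6, 6.55, 7.70 and 13.7% of ThrAGT counts in WT and 21.0, 28.6, 34.8 and 27.0% in NSun2-/- libraries. All NSun2-/- libraries were above all WT libraries, with means of 27.9 ± 5.67% in NSun2-/- and 11.4 ± 5.21% in WT (SD, n = 4 each). This window was chosen after its values were seen, so no test is given. Reads that start at positions 37 to 40 made up 59.6, 68.9, 78.4 and 74.5% in WT and 55.5, 65.8, 57.4 and 63.7% in NSun2-/- libraries, and here the groups overlap. Reads that end in CCA had a mean share of 22.7 ± 7.71% in WT and 10.9 ± 6.33% in NSun2-/- (SD, n = 4 each). The groups overlap here too, with 19.9% in NSun2-/- replicate 1 and 19.1 and 14.5% in WT replicates 3 and 4.

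Differences between reads and genes can mark modified bases. The sequences printed next are the most abundant ThrAGT read, a ThrAGT read that begins inside the anticodon (picked after its values were seen), the most abundant ThrAGT 3′ CCA fragment, the most abundant ThrCGT read and the most abundant ThrCGT 3′ CCA fragment. Capitals mark bases that differ from the gene.
ThrAGT 3′ read: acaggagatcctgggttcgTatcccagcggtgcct
ThrAGT read from the anticodon: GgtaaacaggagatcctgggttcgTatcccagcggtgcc
ThrAGT 3′ CCA fragment: tgggttcgTatcccagcggtgcctcca
ThrCGT 18 nt read: accccgtccgtgcctcca
ThrCGT 3′ CCA fragment: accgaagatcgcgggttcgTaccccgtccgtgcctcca
The substitutions are A59T in the ThrAGT reads and A57T in the ThrCGT read, counted from 1 at the 5′ end of the gene, and each falls at standard position 58. The read that begins in the anticodon also has A35G, at standard position 34. It had 29, 9, 16 and 26 counts in WT and 41, 100, 67 and 28 in NSun2-/- libraries, with an edgeR log2 ratio of 1.70 (adjusted p = 0.250).

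At position 34 of ThrAGT, all 4776 counts that cover it read as G, 100% in each of the 8 libraries. Other isoacceptors with an adenosine there gave 100% for AlaAGC, LeuAAG, ProAGG and SerAGA, 99.7% for IleAAT and 99.3% for ArgACG, and ValAAC had 70.7% as G. The alignment allowed few mismatches, so all such shares describe aligned reads only.

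Position 58 was covered by reads of all 3 members. ThrAGT reads had another base than A in 80.4, 81.5, 79.0 and 78.0% of counts in WT and in 83.9, 78.0, 82.5 and 82.6% in NSun2-/- libraries, overlapping groups with means of 79.7 ± 1.53% and 81.8 ± 2.57% (SD, n = 4 each; exact permutation p = 0.171, adjusted p = 0.343 over 4 tests). ThrCGT had 96.3, 89.4, 91.5 and 80.0% in WT and 77.6, 63.1, 55.9 and 87.9% in NSun2-/- libraries, from 33 to 71 counts each. NSun2-/- replicate 4 lay within the WT range and the other 3 below it, and the means of 89.3 ± 6.84% and 71.1 ± 14.4% (SD, n = 4 each) gave an exact permutation p of 0.0571 (adjusted p = 0.229). ThrTGT was lower, with 27.4, 14.4, 20.1 and 19.1% in WT and 16.7, 8.36, 21.5 and 48.8% in NSun2-/- libraries. NSun2-/- replicate 4 was far above the rest, and the exact permutation test gave an adjusted p of 0.857 for means of 20.2 ± 5.35% and 23.8 ± 17.5% (SD, n = 4 each). Without that library the ThrTGT difference turned to −4.71 points. The ThrCGT and ThrTGT values at this position are not separate, since the 10 sequences of chr13.trna72-ThrCGT (326 counts) are the same as those of chr13.trna73-ThrTGT and all cover it. Without these shared reads, an alternative chosen after seeing the data, ThrCGT had another base in 100% of its 5 to 30 counts in every library, and ThrTGT in 0% in the 4 WT libraries and NSun2-/- replicates 1 and 2, 17.0% in replicate 3 and 28.8% in replicate 4. All ThrCGT counts with the A of the gene were therefore shared reads. The unshared counts are too few to show whether they differ between genotypes.

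At position 32, few ThrAGT reads reached far enough. The share with another base than C was 100, 37.2, 80.3 and 80.7% in WT and 75.6, 91.9 and 78.3% in NSun2-/- replicates 1, 2 and 4, from 5 to 213 counts, and NSun2-/- replicate 3 had none. These counts come from 8 sequences, of which 1 alone held 61 of the 83 counts of WT replicate 4, so the shares rest on few reads. The exact permutation test gave an adjusted p of 0.857, and without WT replicate 2 the difference was −5.07 points. ThrTGT reads matched the gene at positions 9, 26 and 32 in every library, 0% with another base. Of the other tRNAs known for a modified cytosine at 32, pooled over libraries, SerTGA had 15.2%, SerAGA 6.60% and SerGCT 0.664% with another base, SerCGA and ArgTCT had 0%, and ThrAGT had 78.0%.

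The ThrCGT reads were dominated by 1 short 3′ piece. The 18 nt sequence had 644, 434, 314 and 254 counts in WT and 569, 149, 149 and 299 in NSun2-/- libraries, 68.0 to 91.7% of all ThrCGT counts per library. It begins after position 58, its groups overlap, and its edgeR log2 ratio was −0.27 (adjusted p = 0.882). The level of ThrCGT is therefore largely the level of this piece.

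By gene, 13 of the 17 members in the read table passed the filter on low counts, and edgeR called 3 of them, all higher in NSun2-/- skin. Of all 352 genes tested 13.1% were called, 9.09% higher and 3.98% lower. The called genes were chr11.trna206-ThrTGT with a log2 ratio of 1.28 (SE 0.30, adjusted p = 0.0263), chr14.trna704-ThrTGT with 1.16 (SE 0.31, adjusted p = 0.0394) and chr13.trna104-ThrAGT with 1.01 (SE 0.25, adjusted p = 0.0345). The first pair have the same sequence and share reads that the authors distributed, so they are not separate measurements. The calls depended on single libraries, although without any 1 library the log2 ratio was 1.09 to 1.41 for chr11.trna206-ThrTGT, 0.92 to 1.31 for chr14.trna704-ThrTGT and 0.79 to 1.08 for chr13.trna104-ThrAGT. DESeq2 tested 15 members and called 2, chr13.trna104-ThrAGT and chr14.trna704-ThrTGT, and its share over all genes is not given here. No member was called under scaling to library totals, with no filter on low counts or with replicate as a block. The same held without WT replicate 1, 2 or 3 or NSun2-/- replicate 1 or 3. Only 1 was called without WT replicate 4, NSun2-/- replicate 2 or NSun2-/- replicate 4.

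The other named genes were not called. The log2 ratio was 1.27 for chr14.trna190-ThrTGT (adjusted p = 0.0973 by edgeR) and 0.88 for chr13.trna81-ThrAGT (adjusted p = 0.124 by edgeR). The genes chr11.trna395-ThrAGT, chr11.trna1822-ThrAGT, chr11.trna399-ThrAGT and chr7.trna1213-ThrAGT hold the same counts, and their shared value of 0.45 (adjusted p = 0.301 by edgeR) became −0.02 under library totals. For chr16.trna50-ThrCGT it was −0.32, which ranged from −0.84 (without NSun2-/- replicate 1) to −0.01 (without WT replicate 1) when 1 library was left out, and for chr11.trna550-ThrCGT −0.26, which became 0.04 without WT replicate 1 and 0.03 without NSun2-/- replicate 2.

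Among single read sequences, the members had 194 (159 ThrAGT, 14 ThrCGT and 21 ThrTGT), of which 73 passed the filter. With edgeR 0 of these 73 were called, while 2.62% of 12224 sequences were (0.941% higher and 1.68% lower in NSun2-/-). DESeq2 called 2 member sequences, but its share over all sequences is not given here, so these calls have no background beside them. At an unadjusted p under 0.05 by edgeR there were 17, all higher in NSun2-/-, 13 of ThrAGT and 4 of ThrTGT. That is 23.3% of the members tested, against 15% of all sequences in either direction and 7.31% higher. The median log2 ratio was 0.95 for the tested ThrAGT sequences and 1.42 for those of ThrTGT, against −0.09 over all tested sequences. Many of these sequences overlap one another, so they are not separate measurements.

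The bisulphite libraries listed 176613, 156018, 196679 and 187471 cytosines in WT replicates 1 to 4 and 665049, 110324, 658169 and 385574 in NSun2-/- replicates 1 to 4, each cytosine with at least 10 reads and a median of 16 or 17. Of the 13 located members, 10 had a listed cytosine, 101 in all, but only chr11.trna550-ThrCGT had any covered by at least 3 libraries of each genotype. Of its 10 testable cytosines edgeR called 1 lower and 0 higher in NSun2-/- skin, against 0.147% lower and 0.114% higher of 122736 cytosines tested. The called one is C48, at position 79518198 of chromosome 11 (mm9, plus strand).

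C48 of chr11.trna550-ThrCGT was unconverted in 10 of 10, 12 of 12 and 17 of 17 reads of WT replicates 1, 3 and 4, and in 5 of 42, 4 of 28 and 2 of 32 reads of NSun2-/- replicates 1, 3 and 4. Replicate 2 of neither genotype listed it. Every WT value was 100% and no NSun2-/- value was above 14.3%. The means were 100% and 10.8 ± 4.13% (SD, n = 3), a difference of −89.2 points (edgeR adjusted p = 3.17e-06), lower in 3 of 3 NSun2-/- libraries. As 1 value per library the exact permutation p was 0.1, the smallest that 3 against 3 libraries allow. The other cytosines tested in this gene, apart from C72, had means of 4.17 to 18.3% in WT and 5.42 to 8.34% in NSun2-/-. The residual of 10.8% at C48 in NSun2-/- skin was thus somewhat above the NSun2-/- means of these neighbours.

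C72 of the same gene stayed unconverted in both genotypes, with 90, 70 and 100% in WT replicates 1, 3 and 4 and 95, 96.6 and 96.9% in NSun2-/- replicates 1, 3 and 4. The means were 86.7% and 96.1%, and it was not called. Some cytosines 3′ of the gene, outside the mature tRNA, were also largely unconverted: nucleotide 101, counted from the start of the gene, had 90% in WT replicate 4 and 85.7, 86.7 and 96% in NSun2-/- replicates 1, 3 and 4, and nucleotide 106 had 50 and 53.3% in WT replicates 3 and 4 and 100% in those NSun2-/- libraries. Nucleotide 74 had 20, 0 and 16% in the same NSun2-/- libraries. A high share of unconverted reads is thus not particular to C72 in this region, and its source was not tested. At the other members, cytosines of the gene were listed in NSun2-/- libraries only. Pooled over members, chr11.trna550-ThrCGT included, C48 was unconverted there in 5.68% of 264 reads of replicate 1 (10 genes), 16.7% of 12 reads of replicate 2 (1 gene), 4.26% of 141 reads of replicate 3 (7 genes) and 5.60% of 125 reads of replicate 4 (7 genes). C49 was unconverted in 4.44, 16.7, 1.41 and 9.38%, and C72 in 92.4, 100, 95 and 83.2%, in the same order. C50 was unconverted in 16.7 and 13.3% of reads in WT replicates 3 and 4, at 1 gene, and in 11.8, 2.99 and 8.20% in NSun2-/- replicates 1, 3 and 4, at 3 genes. In NSun2-/- skin the junction of the ThrAGT, ThrCGT and ThrTGT genes was thus mostly converted where it was listed, and no WT value exists for most of them. No member had a listed cytosine 5′ of the anticodon, so the level there could not be given.

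The members can be set beside lists of other tRNAs. In all reads, the isoacceptors of Asp, Glu, Gly, His, Lys and Val, named by the study for their 5′ fragments and so not independent evidence, had 2 higher and 1 lower of 12 tested, with a median log2 ratio of 0.09. The other isoacceptors with A34 had 1 higher and 1 lower of 7 (median −0.21), the Ser and Arg isoacceptors with a modified C32 had 0 higher and 3 lower of 6 (median −1.35), and the 1 Cys isoacceptor was not called. In 5′ fragments the same lists had 3 higher of 12 (median 0.25), 2 higher of 7 (median −0.13), 0 of 5 (median −0.21) and 0 of 1, with none lower. The median over all 42 isoacceptors was 0.12, and ThrTGT, at 1.25, ranked 5 of the 42, below a highest value of 1.54.

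By the correlation of log2 levels over the 8 libraries, a description without a test in which points share their library depth, ThrCGT was most like SerGCT (r = 0.911, rho = 0.952), LeuTAA (r = 0.903, rho = 0.833) and TyrGTA (r = 0.902, rho = 0.833). ThrAGT was most like LysTTT (r = 0.598, rho = 0.571), ThrGGT (r = 0.560, rho = 0.733) and MetCAT (r = 0.546, rho = 0.738). ThrTGT was most like ValCAC (r = 0.589, rho = 0.810), IleGAT (r = 0.568, rho = 0.405) and AlaGGC (r = 0.562, rho = 0.514). Each was compared with 56 isoacceptors.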

How the data were processed

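The authors deposited Pol III and tRNA tables as counts per gene, and bisulphite files that give, for each cytosine, read counts by conversion state and the percent left unconverted. Their notes name Bowtie, Bismark 0.7.6 and DESeq, and multiply matching reads were distributed by the authors. Replicates were not pooled. Bisulphite positions are counted from 0, so 1 was added, after which 100% fall on a C or G of mm9. The interval listed for chr11.trna395-ThrAGT belongs to another gene, so it was located by its reads. The genes chr7.trna1213-ThrAGT and chr13.trna72-ThrCGT were also located by their reads.

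Count tables were fitted over all features with edgeR 4.0.16 (TMM, filterByExpr, quasi-likelihood, Benjamini-Hochberg, threshold 0.05) in R 4.3.3, with DESeq2 1.42.0 and limma 3.58.1 as alternatives, and methods were tested on simulated data. Cytosines needed at least 10 reads in 3 libraries of each genotype, and a call also needed 10 points. Per-library values used exact two-sided permutation tests over all assignments of libraries. Rank correlations (rho) used scipy 1.17.1. Pol III ratios used a pseudocount of 1. Alternatives included scaling, filters, fragment definitions, a replicate block and leaving out each library. Every bound Thr gene is named, with the most abundant reads of each kind and cytosines at listed positions. Members and lists were chosen with earlier results of these data known.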

Additional observations from a re-analysis of the deposited data

Results flagged for a closer look

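In 3 groups of 4 libraries, 1 library lay far from the others. For ThrTGT 5′ fragments, WT replicate 1 had 10.03 CPM, while the other WT libraries had 19.7, 19.7 and 20.7 CPM. Without it the edgeR log2 ratio was 1.07 (adjusted p = 0.0122). For ThrTGT 3′ CCA fragments, WT replicate 1 had 0.836 CPM and NSun2-/- replicate 1 had 0.252 CPM, and the other libraries of each genotype had 0. They come from 1 sequence that is equally listed at chr13.trna72-ThrCGT, so it is not a fragment of ThrTGT alone. These are 15 and 5 counts, which share a factor of 5 and so may be as few as 3 reads and 1 read. Chance alone picks out about 1 in 20 groups in this way, and where the other libraries are all at 0, any single library above 0 is picked out.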

How the results depend on the processing

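The ThrTGT 5′ fragment result kept its direction and its side of the threshold in all 18 alternatives, 2 of them chosen after seeing the data, with log2 ratios of 0.88 to 1.39 and edgeR or DESeq2 adjusted p of 0.00334 to 0.0368. Not all of these are separate checks. Without the filter on low counts the values were those of the main fit, and with the blocked filter those of the replicate block. Of all results and alternatives compared, 291 kept their direction and their side of the threshold or stayed within the spread of replicates. Of the rest, 43 were weaker, 18 changed direction, 16 moved by more than that and 1 was stronger.

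Under scaling to library totals, ThrTGT all reads stood at 0.73, ThrAGT and ThrCGT 3′ CCA fragments both at −1.56, and the 4 ThrAGT genes with equal counts (chr11.trna1822, chr11.trna395, chr11.trna399 and chr7.trna1213) at −0.019. The called genes fell to 0. Scaled to bound genes, Pol III ratios were −0.24 for ThrAGT, 0.13 for ThrCGT, −0.056 for ThrTGT and −0.11 for all members. With no filter on low counts 0 genes were called, and DESeq2 called 2 read sequences, without a share over all sequences beside them.

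Leaving out 1 library gave, for all reads, 0.16 to 0.73 (ThrAGT), −0.70 to 0.15 (ThrCGT) and 0.99 to 1.25 (ThrTGT), and for 3′ CCA fragments −0.12 to 0.36 (ThrAGT) and −0.26 to 0.39 (ThrCGT, which was too low to be fitted without WT replicate 1). Called genes ranged from 0 to 1, and chr11.trna550-ThrCGT from −0.81 to 0.036. The ThrTGT 5′ share ranged from 13.3 to 18.4 points, the position 32 difference of ThrAGT from −5.07 to 15.9 and the position 58 difference of ThrTGT from −4.71 to 8.75. Without reads shared between isoacceptors, also chosen after seeing the data, the position 58 difference was 0 for ThrCGT and 11.5 points for ThrTGT, and the ThrTGT 5′ share differed by 13.5 points. Other causes were not tested.

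Replicate numbers do not pair across genotypes in these data (correlations −0.41 to 0.0597). With replicate as a block, 0 genes were called, ThrAGT 3′ CCA fragments stood at −0.037, and the ThrTGT 5′ share of 15.9 points had an exact p of 0.125, the smallest that 4 pairs allow. With the block and a filter set by the blocked design, an alternative chosen after seeing the data, ThrTGT all reads stood at 1.15 (adjusted p = 0.0597 by edgeR), ThrAGT 3′ CCA fragments at −0.037 and 0 genes were called. Adjusted over all 5 per-library values, a reading of the planned family added after seeing the data, the 15.9 points had an adjusted exact p of 0.143.

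C48 of chr11.trna550-ThrCGT did not pass the filter of the fit over all cytosines at 30 reads, in all 4 libraries per genotype, or without replicate 1, 3 or 4 of either genotype. As 1 value per library, without any 1 of these its difference was −90.9 to −86.9 points, with an exact p of 0.1, the smallest that 2 against 3 libraries allow. In the other 4 settings its adjusted p ranged from 1.06e-07 to 0.0135 by edgeR and limma. In 2 of these the library left out was replicate 2 of WT or of NSun2-/-, which did not list C48, so they do not check it. Only 1 Thr gene had testable cytosines, and Pol III has no replicate for NSun2-/-.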
